A study of Mus musculus with 7 samples.

Results

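Integrins are adhesion receptors made of 1 alpha and 1 beta chain, and 9 of these chains were followed here in regulatory T (Treg) cells: Itgae, Itgb7, Itga4, Itgb1, Itgal, Itgb2, Itgav, Itgb3 and Itga6. They were taken by gene symbol from a table of 15815 genes. The rule uses no measured value, but the members were chosen with earlier results of these data known. All 9 passed the filter on low values. The table covers 7 bulk RNA-seq libraries of YFP-positive cells sorted from mesenteric lymph nodes (mLN) of Rag-/- mice, which make no T or B cells of their own. The hosts had been given WT naive T cells and WT Treg cells together with a YFP-marked Treg population, 8 weeks before collection. The marked cells were WT in 4 libraries (WT 1 to 4) and deficient in Hpgd in 3 (KO 1 to 3). Hpgd encodes the enzyme that inactivates prostaglandins. The labels give strain C57BL/6JRcc and the line Hpgd fl; Foxp3-YFP-Cre for all 7 libraries, and only the titles separate WT from KO. Cre in this line is driven from Foxp3, so the deletion is directed to cells that have expressed Foxp3. The age and sex of the mice, and whether each library came from its own host, are not given in the sources used here, so the p-values below reflect only how far these 7 libraries differ, some of which may be technical.

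A lymphocyte uses integrins to stop on vessel walls, to enter tissue and to hold on to cells and matrix there. The alpha E chain (Itgae, also called CD103) pairs with beta 7 to bind E-cadherin on epithelium. Alpha 4 pairs either with beta 7, giving the receptor for the gut and mesenteric node addressin MAdCAM-1, or with beta 1, giving the receptor for VCAM-1 and fibronectin. Alpha L with beta 2 forms LFA-1, the receptor for ICAM proteins on most leukocytes, alpha V with beta 3 binds vitronectin, and alpha 6 with beta 1 binds laminin. Alpha V also pairs with beta 1. The alpha 4, alpha V, beta 1 and beta 7 chains therefore each have more than 1 partner. A cell assembles only as much of a receptor as both of its chains allow.

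The libraries held between 4135733 (KO 3) and 10622507 (WT 4) reads in the table, and each chain rested on at least 253 reads in every library. Hpgd itself lay between 9.96 and 18.7 normalized counts in WT and between 0.759 and 5.52 in KO, so the groups did not overlap, on 9 to 19 reads in WT and 1 to 3 in KO, and its mean was below the filter for testing. Of 8 listed T and Treg cell genes 7 were in the table, and they summed to 33717 to 39448 in WT and 37020 to 38781 in KO. Ikzf2 and Cd3g led this sum, with means of 10189 and 10133. Foxp3, the defining Treg transcription factor gene, was read in every library but at a far lower level, 56.1 to 161, with the lowest value in WT 2. WT 2 stood apart from the other libraries. Its deviations from each gene's mean were lower the longer the transcript, over 11311 genes (Spearman's rho = -0.38, across genes, which are not independent replicates), from a median of 0.54 log2 units for the shortest 1 in 20 genes to -0.69 for the longest. WT 3 showed the opposite slope (rho = 0.29), and the other 5 libraries had rho values between 0.01 and 0.15. Ribosomal protein genes took 7.76% of the reads of WT 2 and 4.49% to 5.65% of those of the others. KO 3 was the shallowest library. Many values are therefore also given without WT 2, KO 3 or both, but not every value that changed without them.

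**Figure D1:**
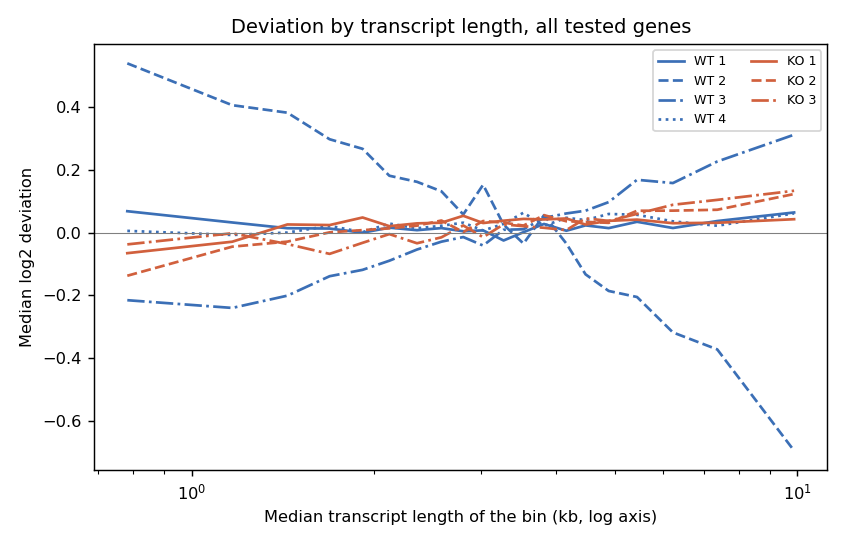
Median deviation of tested genes from their own mean over the 7 libraries (log2 units, vertical axis) against transcript length in 20 bins (kilobases, log axis), with 1 line per library. WT 2 starts at 0.54 and ends at -0.69, WT 3 runs from -0.22 to 0.31, and the end bins of the other 5 libraries lie between -0.14 and 0.13.

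The 9 chains are protein-coding genes spread over 6 chromosomes (mm10; positions and lengths from GENCODE M21, GRCm38). Itgae (ENSMUSG00000005947.11) lies on chromosome 11, 73090583 to 73147446, plus strand. Itgb7 (ENSMUSG00000001281.10) lies on chromosome 15, 102215995 to 102231944, minus strand. Itga4 (ENSMUSG00000027009.18) lies on chromosome 2, 79255426 to 79333123, plus strand, on the same chromosome and strand as Itgav (83724397 to 83806916) and Itga6 (71745616 to 71858416). Itgb1 is on chromosome 8 (128685654 to 128733200), Itgal on chromosome 7 (127296260 to 127335138), Itgb2 on chromosome 10 (77530252 to 77565708) and Itgb3 on chromosome 11 (104608000 to 104670476), all on the plus strand. The longest protein-coding transcript differs widely in length between chains. It has 2683 nucleotides for Itgb7 and 2970 for Itgb2, against 7054 for Itgav and 9767 for Itga4, which matters for the comparison of libraries that differ by length.

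RefSeq promoter windows (GRCm38.p6) were found for 4 of the 9 chains, Itgb7, Itga4, Itgav and Itgb1. All windows found are shown, and their part in the levels described below was not tested. Each is the 240 bases from 250 to 11 before the RefSeq start, 5′ to 3′ on the gene's strand, with capitals marking 3 short motifs searched on both strands: GGGCGG (the GC box bound by Sp1), AGGAAG (a core bound by Ets factors) and TGTGGT (a core bound by Runx factors), none of which overlap here. The windows are chr15:102231946-102232185 on the minus strand for Itgb7, and on the plus strand chr2:79255176-79255415 for Itga4, chr2:83724147-83724386 for Itgav and chr8:128685404-128685643 for Itgb1.
Itgb7: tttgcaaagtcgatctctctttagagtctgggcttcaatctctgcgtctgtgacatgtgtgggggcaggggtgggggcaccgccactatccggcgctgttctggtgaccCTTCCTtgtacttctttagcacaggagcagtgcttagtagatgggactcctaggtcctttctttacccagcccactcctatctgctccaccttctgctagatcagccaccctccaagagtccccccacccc
Itga4: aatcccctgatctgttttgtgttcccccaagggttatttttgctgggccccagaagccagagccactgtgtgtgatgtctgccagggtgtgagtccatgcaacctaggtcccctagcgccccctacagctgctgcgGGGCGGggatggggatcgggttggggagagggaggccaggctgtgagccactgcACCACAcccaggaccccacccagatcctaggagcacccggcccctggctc
Itgav: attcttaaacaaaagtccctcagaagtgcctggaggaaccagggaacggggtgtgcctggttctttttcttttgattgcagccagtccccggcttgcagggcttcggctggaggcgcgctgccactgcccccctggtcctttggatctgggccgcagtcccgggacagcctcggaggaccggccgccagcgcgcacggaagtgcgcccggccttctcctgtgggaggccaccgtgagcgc
Itgb1: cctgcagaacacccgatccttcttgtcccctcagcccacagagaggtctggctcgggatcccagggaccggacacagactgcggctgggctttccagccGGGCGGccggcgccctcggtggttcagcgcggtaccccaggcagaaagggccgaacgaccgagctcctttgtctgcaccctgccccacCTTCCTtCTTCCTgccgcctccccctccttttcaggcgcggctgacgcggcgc

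The Itgb7 window held 1 AGGAAG core, starting 141 bases before the start, and neither of the other motifs. The Itga4 window held 1 GC box and 1 TGTGGT core, 114 and 60 bases before the start, and the Itgb1 window held 1 GC box at 151 and 2 AGGAAG cores at 63 and 56 bases before it. Of the 3 motifs none was found in the Itgav window. Over 32851 RefSeq promoter windows of the same length, 31.3% held the GC box, 28.4% AGGAAG and 13.6% TGTGGT, so each match is a common one. The GC content was 55.8% for Itgb7, 63.3% for Itga4, 65.0% for Itgav and 68.3% for Itgb1, against a median of 52.1% over all windows. The matches describe letters only, and no binding data were analysed here.

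Levels between chains can be compared only per length, so normalized counts were divided by the length of the longest protein-coding transcript. Itgae and Itgb7, the chains of the E-cadherin receptor, were the most abundant, followed by Itgb2, and then by a wide step to Itgal and the rest. Itgae stood at 3213 ± 584 normalized counts per kilobase (SD, n = 7) and Itgb7 at 3081 ± 801, ranks 134 and 146 of 11311 tested genes. Itgae was above Itgb7 in only 4 of 7 libraries, so these 2 chains did not differ beyond their spread, and the union of exons as length put Itgb7 first. Itgb2 followed at 1968 ± 416 and was below Itgb7 in 7 of 7 libraries, although their ranges overlapped.

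The other chains were lower. Itgal, the partner of Itgb2, was at 677 ± 67.0 per kilobase, and its range lay wholly below that of Itgb2. Itgb1 was at 558 ± 226 and below Itgal in 5 of 7 libraries, so these neighbours did not differ beyond their spread. Itga4 came next at 326 ± 83.2, then Itga6 at 229 ± 37.5, Itgav at 110 ± 24.4 and Itgb3 at 67.1 ± 16.4. Each of these 4 was below its upper neighbour in 7 of 7 libraries, with ranges that overlapped except between Itga6 and Itgav. Leaving out any 1 library, or both WT 2 and KO 3, gave the same order for all 9 chains. With the median coding transcript as length, which is shortened by partial models, only 2 of 9 chains kept their place.

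Itgae, the alpha E chain, was read at 11207, 16440, 10116 and 12304 normalized counts in WT 1 to 4, against 12831, 13566 and 10009 in KO 1 to 3. WT 2 was the highest library and KO 3 the lowest, and the KO values fell inside the WT range except for KO 3, just below it. WT libraries averaged 12516 ± 2764 (SD, n = 4) and KO libraries 12135 ± 1878 (SD, n = 3). The log2 fold change, KO against WT on the log2(normalized count + 1) scale, was -0.03 with a 95% interval of -0.54 to 0.48 (limma adjusted p = 0.9996). Its estimate without both WT 2 and KO 3 was 0.24, so its sign rested on those libraries. In bulk RNA fewer cells with a transcript and less transcript per cell cannot be told apart.

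Itgb7, the beta chain that Itgae and Itga4 share, lay at 8598, 12017, 6222 and 7247 in WT 1 to 4, against 9918, 7929 and 5927 in KO 1 to 3. Again WT 2 was highest and KO 3 lowest, and the groups overlapped. Its log2 fold change was -0.09 (95% interval -0.66 to 0.48; limma adjusted p = 0.9996), and 0.28 without both WT 2 and KO 3.

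Itga4, the alpha chain of the MAdCAM-1 and VCAM-1 receptors, was read at 3212, 1652, 4311 and 3334 in WT 1 to 4, against 3146, 2929 and 3689 in KO 1 to 3. WT 2 was lowest here and WT 3 highest, with all KO libraries between them. The log2 fold change was 0.13 (95% interval -0.47 to 0.74; limma adjusted p = 0.9996), turning to -0.24 without both WT 2 and KO 3 and to -0.15 without WT 2 alone. Itga4 is the longest of the 9 transcripts and WT 2 the library in which long transcripts were low, and the part of transcript length in this difference was not tested.

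Itgb1, the beta chain with the most alpha partners, varied most between libraries. It lay at 1465, 1599, 2842 and 1778 in WT 1 to 4, against 1909, 1537 and 3773 in KO 1 to 3, with WT 3 and KO 3 above all others. Its coefficient of variation over the 7 libraries was 40.5%, higher than that of 97.3% of the 4971 tested genes with a mean of at least 300, whose median was 20.2%. The log2 fold change was 0.26 (95% interval -0.40 to 0.93; limma adjusted p = 0.9996), and -0.11 without KO 3.

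The LFA-1 chains Itgal and Itgb2 differed in how much they varied. Itgal was read at 2963, 3904, 3540 and 3565 in WT, against 3662, 3908 and 3196 in KO, and its coefficient of variation of 9.89% was the smallest of the 9 chains, lower than that of all but 5.61% of the same 4971 genes. Itgb2 was read at 5693, 7831, 4332 and 5973 in WT, against 6645, 6082 and 4365 in KO, with WT 2 highest and WT 3 and KO 3 lowest. The log2 fold changes were 0.04 for Itgal (95% interval -0.36 to 0.44) and -0.06 for Itgb2 (-0.57 to 0.46). That of Itgb2 turned to 0.087 without WT 2, to 0.13 without KO 3 and to 0.27 without both. Beta 2 integrins are also abundant in myeloid cells. The 6 listed myeloid markers summed to 173 to 1420 normalized counts in WT and 608 to 1585 in KO, with the lowest sum in WT 3, led by Lyz2 at 47.5 to 1274. Their part in the Itgb2 values was not tested.

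Itgav and Itgb3, the vitronectin receptor chains, were the least abundant. Itgav lay at 675, 560, 1072 and 860 in WT, against 740, 649 and 870 in KO, with WT 2 lowest and WT 3 highest. Itgb3 was tightly grouped in WT, at 392, 409, 411 and 347, and widely spread in KO, at 450, 204 and 506, where KO 2 alone was low. Its log2 fold change of -0.11 (95% interval -0.75 to 0.53) became 0.30 without KO 2. That of Itgav was -0.04 (-0.56 to 0.48). Without both WT 2 and KO 3 the estimates were -0.33 for Itgb3 and -0.30 for Itgav. Of 5 platelet markers 2 were in the table, and they summed to no more than 7.24 normalized counts in any library.

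Itga6, the laminin receptor chain, had the smallest unadjusted p of the 9 chains. It was read at 1052, 674, 1038 and 906 in WT 1 to 4, against 1124, 1146 and 954 in KO 1 to 3. WT 2 was low, and KO 3 lay within the range of the other 3 WT libraries while KO 1 and KO 2 lay above every WT library. The means were 917 ± 175 (SD, n = 4) and 1075 ± 105 (SD, n = 3), and the log2 fold change was 0.25 (SE 0.21; unadjusted limma p = 0.261; adjusted p = 0.9996; exact two-sided permutation p = 0.257). It was the only chain whose estimate kept 1 sign under every alternative run, between 0.10 and 0.33.

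**Figure D2:**
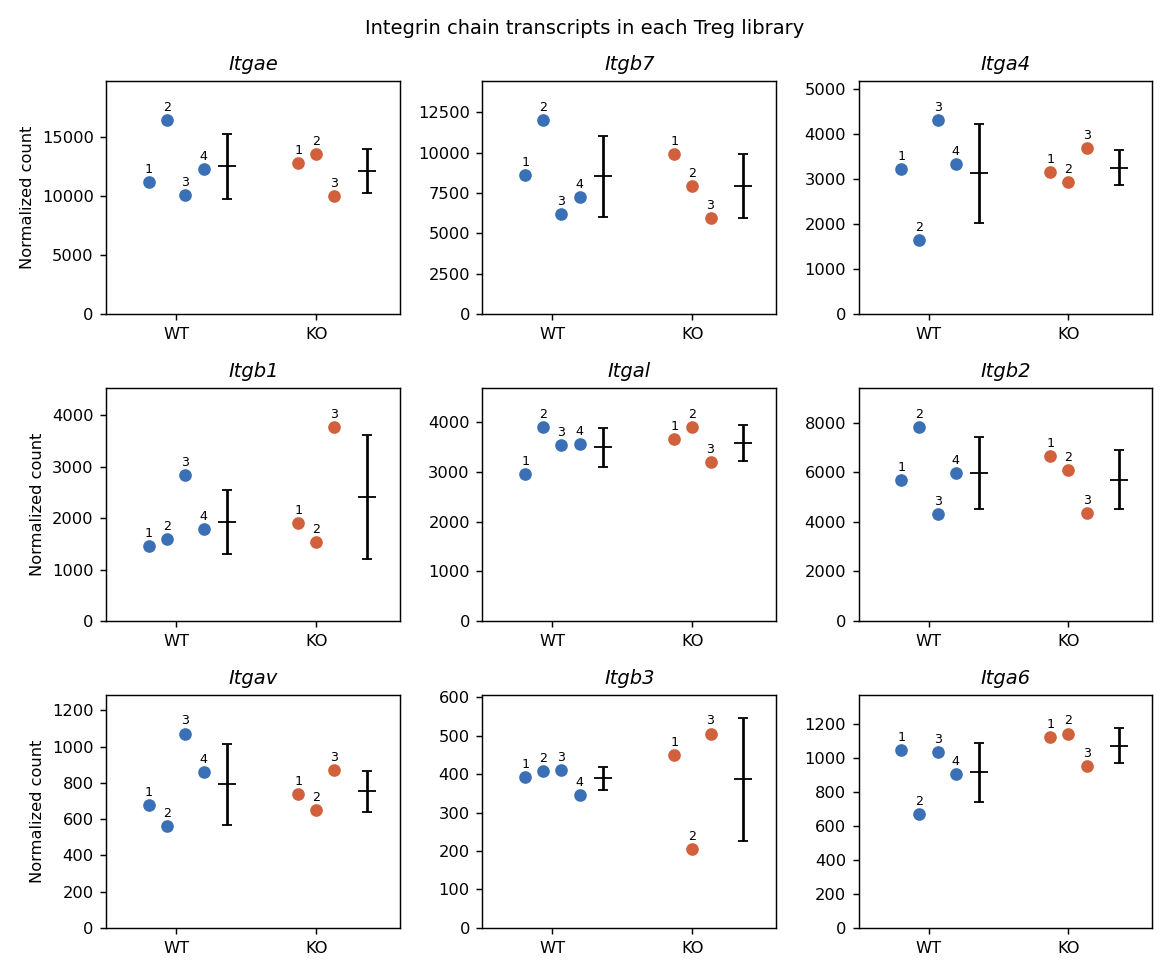
Normalized counts of the 9 chains in each library (linear axis from 0, points numbered by replicate, WT blue and KO orange; black bars are mean ± SD, n = 4 and n = 3). The groups overlap in every panel, WT 2 is the highest point for Itgae at 16440 and the lowest for Itga4 at 1652, and KO 3 is the highest for Itgb1 at 3773.

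Between genotypes limma passed none of the 9 chains at an adjusted p under 0.05, nor was any of them under 0.05 before adjustment. Over all 11787 tested genes limma passed 0, or 0% of them, while 211 genes (1.79%) were under 0.05 before adjustment. On reads recovered from the values, voom passed 0 genes, with 186 under 0.05 before adjustment. All 9 chains had overlapping groups. The groups did not overlap for 3.65% of all tested genes. Of the 9 estimates 4 were higher and 5 lower in KO, where 51.8% of all tested genes had a higher estimate. An estimate beyond 0.2 in size was found for 2 chains, Itgb1 and Itga6, and for 51.7% of all tested genes. The median log2 fold change was -0.03 over the chains and 0.01 over all tested genes. The median over the chains turned to 0.089 without WT 2, 0.10 without KO 3, 0.18 without both and 0.098 with array weights. The intervals extended a median of 0.52 log2 units to either side of the estimate, so smaller differences were not resolved with these 7 libraries. Every exact two-sided permutation p over the 35 splits was at least 0.257, where 0.0286 is the smallest possible.

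**Figure D3:**
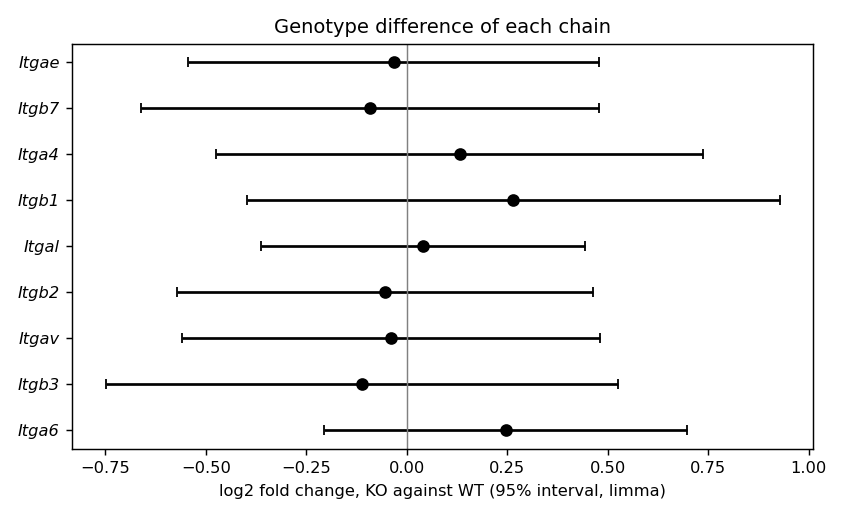
Log2 fold change of each chain, KO against WT, with its 95% interval from limma (horizontal axis; vertical line at 0). All 9 intervals include 0, and the estimates lie between -0.11 for Itgb3 and 0.26 for Itgb1.

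The known pairs were then compared as the ratio of the alpha to the beta level per kilobase in each library. The ratio of Itgae to Itgb7 was 0.910, 0.955, 1.13 and 1.18 in WT 1 to 4, against 0.903, 1.19 and 1.18 in the KO libraries, a span of 1.32-fold that was the narrowest of the 7 known pairs over all libraries. Without both WT 2 and KO 3 the span of Itgav to Itgb1 was narrower, at 1.28-fold. WT libraries averaged 1.05 ± 0.134 (SD, n = 4) and KO libraries 1.09 ± 0.164 (SD, n = 3), so the groups overlapped. The mean log2 ratio over the 7 libraries was 0.08. It moved to -0.13 with the union of exons as length and to -2.56 with the median coding transcript, so closeness to 1 depended on the length used.

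The second partner of Itgb7 was far below it. The ratio of Itga4 to Itgb7 was 0.103, 0.0378, 0.190 and 0.126 in WT and 0.0871, 0.101 and 0.171 in KO, a span of 5.04-fold. Without WT 2 the span was 2.18-fold, and that of Itga6 to Itgb1 was the widest, at 2.95-fold. WT 2 had the lowest ratio, and WT 3 and KO 3 the highest. Per kilobase Itgae exceeded Itga4 by 5.96-fold (WT 3) to 25.3-fold (WT 2), and by at most 11.8-fold without WT 2. The genotype means of the ratio of Itga4 to Itgb7 were 0.114 ± 0.0630 and 0.120 ± 0.0448. These ratios compare transcripts, and receptor assembly was not measured.

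Of the beta 1 pairs, Itga4 stood at 0.856, 0.404, 0.593 and 0.732 of Itgb1 in WT, against 0.643, 0.744 and 0.382 in KO, so beta 1 exceeded alpha 4 in all 7 libraries. Itga6 stood at 0.323 to 0.635 of Itgb1 in WT, against 0.224 to 0.660 in KO, with both ends of the range in KO 3 and KO 2. Itgav was at 0.190 to 0.261 of Itgb1 in WT, against 0.125 to 0.228 in KO. For each of these 3 pairs KO 3, the library with the most Itgb1, had the lowest ratio. Beta 2 exceeded alpha L in every library, with ratios of Itgal to Itgb2 from 0.284 (WT 2) to 0.465 (WT 3). Itgav was 1.12-fold (WT 2) to 2.60-fold (KO 2) of Itgb3, above it in 7 of 7 libraries, but in only 3 of 7 with the union of exons as length. The genotypes overlapped in all 7 pairs. The difference of their mean log2 ratios, KO minus WT, lay between -0.31 and 0.22. For Itgav to Itgb1 it was -0.31, and -0.035 without KO 3. For Itga4 to Itgb7 it was 0.22, turning to -0.24 without WT 2 and to -0.52 without both. For Itga6 to Itgb1 it was -0.02, turning to 0.44 without KO 3. For Itga4 to Itgb1 it was -0.13, turning to 0.15 without KO 3. The difference of 0.059 for Itgae to Itgb7 turned to -0.043 without both WT 2 and KO 3. That of 0.096 for Itgal to Itgb2 turned to -0.090 without both, and that of 0.071 for Itgav to Itgb3 to -0.11 without WT 2.

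**Figure D4:**
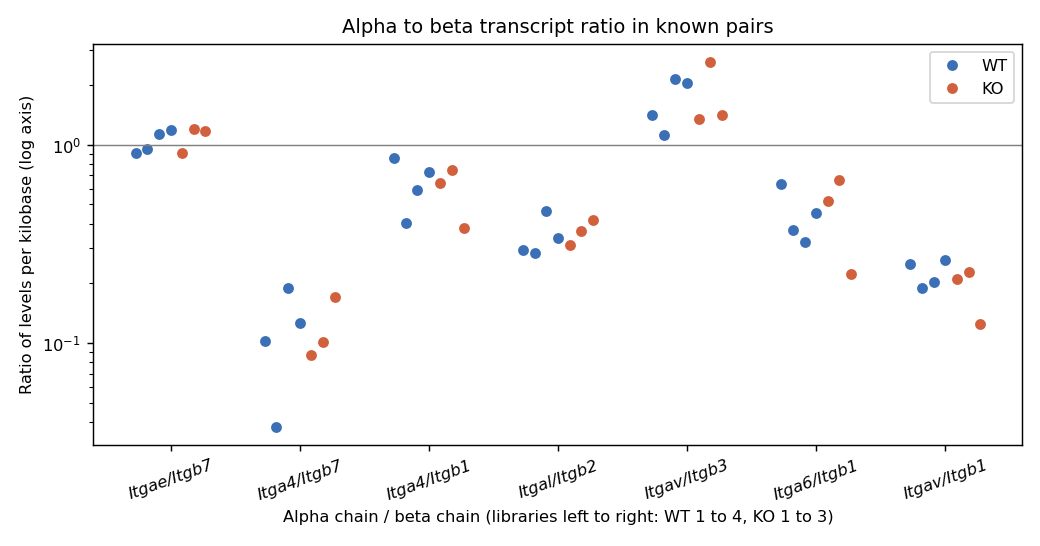
Ratio of alpha to beta chain level per kilobase in the 7 known pairs (log axis, 1 point per library in the order WT 1 to 4 in blue and KO 1 to 3 in orange, line at 1). Itgae/Itgb7 lies between 0.903 and 1.19, and Itga4/Itgb7 between 0.0378 in WT 2 and 0.190 in WT 3.

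Over the 7 libraries some chains varied together and others in opposite directions. Itgae and Itgb7 were correlated, with Pearson's r = 0.87 (exact permutation p = 0.0109, adjusted over the 7 known pairs p = 0.0382) and Spearman's rho = 0.82 (exact permutation p = 0.0341, adjusted p = 0.112). With WT 2 and KO 3 left out, which lay farthest from the Itgae median, r was 0.59, over 5 libraries. Taken as deviations from the genotype means, r was again 0.87. Itgb7 ranked 405 among the 11786 other tested genes by likeness to Itgae. Itga4 and Itgb7, also chains of 1 receptor, varied in opposite directions, with r = -0.86 (exact permutation p = 0.00516, adjusted p = 0.0361) and rho = -0.86 (exact permutation p = 0.0238, adjusted p = 0.112). Without WT 2 and WT 3, farthest from the median of Itga4, r was -0.73, and without both WT 2 and KO 3 it was -0.75. By likeness to Itga4, Itgb7 ranked 666 from the bottom among the 11786 other tested genes. An r to Itgb7 of at least this size, of either sign, was found for 10.4% of them, so it was not rare. Of the 7 ways to leave out 1 library, 5 ended the call for each of these 2 pairs. For both, the adjusted exact permutation p was 0.192 without WT 2, 0.151 without WT 3, 0.0535 without WT 4 and 0.0583 without KO 1. Without KO 3 it was 0.100 for Itgae with Itgb7 and 0.0924 for Itga4 with Itgb7. After the median deviation of genes of similar length had been taken off in each library, an alternative chosen after seeing the data, r was 0.84 for Itgae with Itgb7 and -0.74 for Itga4 with Itgb7 (adjusted p = 0.103 for both).

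The other known pairs did not pass. Itgav and Itgb1 had r = 0.73 (exact permutation p = 0.0627, adjusted p = 0.146) and rho = 0.79 (exact permutation p = 0.0480, adjusted p = 0.112), and r = 0.73 without WT 3 and WT 2. Itga4 and Itgb1 had r = 0.56 (exact permutation p = 0.182, adjusted p = 0.286) and rho = 0.64 (exact permutation p = 0.139, adjusted p = 0.194), and r = 0.85 without WT 2 and WT 3. Itgal and Itgb2 had r = 0.54 (exact permutation p = 0.204, adjusted p = 0.286) and rho = 0.75 (exact permutation p = 0.0663, adjusted p = 0.116), and r = 0.68 without WT 1 and KO 3. For Itgav with Itgb3 r was 0.32 (exact permutation p = 0.512, adjusted p = 0.597) and rho 0.50 (exact permutation p = 0.267, adjusted p = 0.311), and r was 0.61 without WT 3 and WT 2. For Itga6 with Itgb1 r was 0.07 (exact permutation p = 0.895, adjusted p = 0.895) and rho -0.25 (exact permutation p = 0.595, adjusted p = 0.595), and r was -0.80 without WT 2 and WT 4. Without both WT 2 and KO 3, r was 0.92, 0.91, 0.18, 0.47 and -0.14 for these pairs in the order given. That of Itgal with Itgb2 was 0.37 without WT 2 alone.

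The strongest likeness among the 36 pairs of chains was not within a receptor. As a description over 7 libraries that share depth and length differences, Itgae was most like Itgb2 (r = 0.95, rho = 0.93), a beta chain it does not pair with, which ranked 47 among the 11786 other tested genes. Itgb7 with Itgb2 gave r = 0.94. Itga4 and Itgav, the longest transcripts, varied together (r = 0.87, rho = 0.96) and opposite to Itgae (r = -0.92 and -0.83), Itgb7 (-0.86 and -0.84) and Itgb2 (-0.86 and -0.84). In all, 4 of 36 pairs had r above 0.8 and 6 below -0.8. All of them lie among Itgae, Itgb7, Itgb2, Itga4 and Itgav, so they are not separate observations. The share of all gene pairs beyond 0.8 was not computed. Without WT 2 the counts were 3 and 3, and after taking off the length trend 4 and 3. Over libraries the deviations of Itga4 followed each library's length slope with r = 0.95, and those of Itga6, Itgae and Itgb7 with 0.85, -0.81 and -0.82. This r was beyond 0.8 in size for these 4 chains and for 21.9% of 11311 tested genes. The slope was -0.29 log2 units per doubling of length in WT 2, against 0.0021 to 0.14 in the other libraries. The r with the slope is not given without WT 2. With the length trend taken off, r was -0.90 for Itgae with Itga4, but -0.49 for Itgae, -0.54 for Itgb7 and -0.55 for Itgb2 with Itgav. Without both WT 2 and KO 3 these 4 values were -0.89, -0.72, -0.76 and -0.77.

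**Figure D5:**
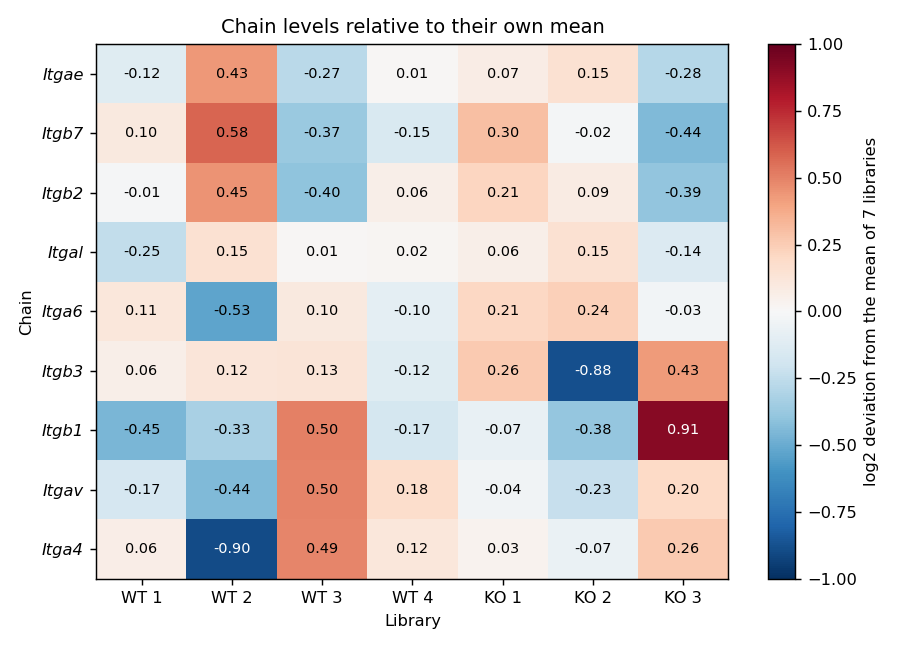
Log2 deviation of each chain from its own mean over the 7 libraries (colour and printed value; rows are chains, columns libraries). WT 2 is above the mean for Itgae, Itgb7 and Itgb2 (0.43, 0.58 and 0.45) and below it for Itga4 and Itgav (-0.90 and -0.44), and WT 3 shows the reverse.

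The gene most like each chain over the 7 libraries, among 7806 genes with a mean of at least 100, was taken by a fixed rule and is a description of the highest of many correlations. For Itgae it was Dpp3, a dipeptidyl peptidase gene (r = 0.99), for Itgb7 H2-T23, a nonclassical MHC class I gene (r = 1.00), and for Itgb2 Ndufb9, a respiratory complex I subunit gene (r = 0.99). For Itga4 it was Atxn7, for Itgav Otud4, a deubiquitinase gene, and for Itgb1 Rad21, a cohesin subunit gene (r = 0.99, 0.99 and 0.97). Itgal was most like Uqcc1 (r = 0.98), Itgb3 like S100a4, a calcium-binding protein gene (r = 0.97), and Itga6 like Rrbp1 (r = 0.97). S100a4 shared the low value of Itgb3 in KO 2, at 746 normalized counts against 1306 to 1711 in the other 6 libraries.

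Of 18 other integrin chains looked for, 17 were in the table and 9 were tested, of which 7 were higher and 2 lower in KO by their estimates, and none passed. Their median log2 fold change was 0.38, but their levels were low. Itgb8, whose product pairs with alpha V to activate latent TGF-beta, was the most abundant, at 193, 71.5, 391 and 357 in WT 1 to 4 against 229, 317 and 204 in KO 1 to 3, with WT 2 lowest. Itga2, a collagen receptor chain, was at 135 ± 79.4 and 152 ± 53.2, and Itga7, a laminin receptor chain, at 59.5 ± 24.5 and 60.7 ± 35.3. Itga3 was at 32.4 ± 11.4 and 41.8 ± 13.2, Itga1 between 4.53 and 62.5 over all libraries, and Itga5, the fibronectin receptor chain, at 19.6 ± 16.0 and 24.3 ± 15.9. Itgb5 lay at 21.9 ± 20.2 and 22.4 ± 6.85. Itgam, the myeloid alpha M chain, lay at 15.9 ± 14.3 in WT and 29.9 ± 8.04 in KO, with 37.3 in WT 4 and 21.2, 37.2 and 31.3 in the KO libraries against 7.24 to 10.2 in the other 3 WT libraries.

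Genes that raise or lower integrin activation from inside the cell were tested next, with 25 of 29 listed genes passing the filter. As the list mixes both kinds, the counts below give no direction of activation. Estimates were higher for 14 and lower for 11 of them in KO (median log2 fold change 0.04), none passed, and 2 had groups that did not overlap, against 3.65% of all tested genes. They were Rapgef5 and Rapgef6, exchange factor genes of 1 family. Rapgef5 was at 4.40, 0.905, 11.3 and 7.73 in WT 1 to 4, against 28.8, 21.8 and 80.9 in KO 1 to 3 (log2 fold change 2.73; limma unadjusted p = 0.00838; adjusted p = 0.9996). These values rest on few reads, 4, 1, 10 and 11 in WT and 38, 27 and 44 in KO. Rapgef6 was at 4517, 2669, 4531 and 4850 in WT, against 4928, 4974 and 5494 in KO (0.35), with WT 2 far below the other libraries. For Rapgef1, of the same family, the WT mean was 797 ± 174 and the KO mean 617 ± 106. Skap2, an adaptor gene, was at 251 ± 34.6 and 189 ± 78.9.

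Of 26 genes that carry signals from bound integrins to the cytoskeleton 21 were tested, 11 with higher and 10 with lower estimates in KO, and none passed (median log2 fold change 0.00). The adaptor gene Crk, at 474 ± 169 and 648 ± 55.8, had the smallest unadjusted p. Vasp, an actin regulator gene, was at 1361 ± 233 and 1169 ± 103, Ilk, the integrin-linked kinase gene, at 754 ± 241 and 854 ± 40.4, and Crkl at 379 ± 65.5 and 463 ± 150.0. Among 13 tested genes of integrin-associated membrane proteins 5 estimates were higher and 8 lower (median -0.01), and none passed. They included the tetraspanin genes Cd9 (155 ± 49.0 and 112 ± 42.7), Cd82 (5098 ± 1842 and 4352 ± 1251) and Cd37 (2297 ± 568 and 2048 ± 285), and Slc3a2, the CD98 heavy chain gene (1206 ± 402 and 1400 ± 20.2).

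Of 24 ligand genes 9 passed the filter on low values. Among them 5 estimates were higher and 4 lower in KO (median log2 fold change 0.03), and none passed the test. Icam1, the LFA-1 ligand gene, lay at 1339 ± 345 in WT and 1245 ± 280 in KO. Fn1, the fibronectin gene, was at 61.8 ± 28.8 and 36.8 ± 17.5, and the laminin genes Lamc1 and Lama5 were at 423 ± 46.7 and 471 ± 62.8, and at 22.4 ± 13.5 and 27.9 ± 10.5. Cdh1, which encodes E-cadherin and is also an epithelial marker, lay at 137 to 467. The 3 epithelial markers in the table summed to 571 to 1054 in WT and 488 to 754 in KO. Epcam lay at 248 to 587 and the epithelial keratin gene Krt18 at 0 to 14.7. The part of epithelial RNA in these values was not tested.

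Of 15 regulators linked to Itgae or beta 7 expression all were tested, of which 11 had a higher and 4 a lower KO estimate, with a median log2 fold change of 0.05, and none passed. TGF-beta induces Itgae, and its receptor gene Tgfbr2 was at 1598 ± 217 and 1834 ± 279, with the signal transducer gene Smad2 at 378 ± 12.4 and 444 ± 68.6. The transcription factor genes Ets1 and Batf were at 10846 ± 554 and 12142 ± 1021, and at 815 ± 147 and 896 ± 159. Among 11 tested homing genes that act beside integrins 6 estimates were higher and 5 lower in KO (median 0.05), and none passed. Gpr15, a receptor gene for entry into the large intestine, was at 638, 843, 513 and 619 in WT, against 837, 774 and 1230 in KO, so the groups overlapped (log2 fold change 0.53; limma unadjusted p = 0.0421; adjusted p = 0.9996). Of the chemokine receptor genes, Ccr6 lay at 395 ± 85.4 and 503 ± 57.7, and Cxcr3 at 2841 ± 1084 and 2396 ± 458.

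Of the markers of other cell types, the erythroid list differed most between genotypes, with 5 of 6 genes in the table and sums of 642 to 2809 in WT against 77.4 to 239 in KO. The highest sums were 2809 in WT 2 and 1926 in WT 3. B cell markers summed to 320 to 751 in WT and 327 to 433 in KO, nearly all from Cd79b, with Ms4a1 and Cd79a at no more than 12.9. CD8 T cell markers, of interest because CD8 T cells can carry Itgae, summed to 79.2 to 136 in WT and 42.3 to 128 in KO. Of these Cd8b1 lay at 25.7 to 126 and Cd8a at 0 to 16.5. NK cell markers summed to 63.3 to 104 and 23.9 to 65.3, dendritic cell markers to 135 to 250 and 181 to 254, neutrophil and mast cell markers to 56.1 to 148 and 34.9 to 660, and stromal and endothelial markers to 246 to 467 and 317 to 434. No marker gene in the table was at 0 in all 7 libraries, and the part of other cells in the integrin values was not tested.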

How the data were processed

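The data are 7 RNA-seq libraries, 4 WT and 3 KO by their titles. The labels' protocols give SmartSeq2 libraries made from 10 ng of RNA, a method that amplifies full-length cDNA without strand information or molecular identifiers. The authors deposited 1 normalized signal per gene and library. The submitters' processing notes name kallisto 0.44, CASAVA 1.8, Partek 6.6, R 3.3.1, DESeq2 and mm10, with no role or order. Each library's smallest deposited signal was 1. After subtracting it, 100% of the remainders were multiples of a library-specific step (tolerance 0.01 of a read), worth 0.703 to 1.84. Normalized counts are these remainders, and reads are the multiples. The recovered reads entered voom only, and edgeR and DESeq2 were not run here.

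The 11787 of 15815 genes with a mean of at least 10 entered the limma model (limma 3.58.1, R 4.3.3). Values were log2(normalized count + 1), the prior was trended, there was no covariate, and Benjamini-Hochberg adjustment ran over all of these genes at 0.05. The fit was tested on simulated data. Levels per kilobase use the longest protein-coding transcript of GENCODE M21 (14981 of 15815 symbols found). The members and lists were chosen with earlier results of these data known. Named genes are the 9 chains, Hpgd, up to 8 other chains by mean, up to 4 tested genes per list by unadjusted p, and the gene most like each chain by Pearson's r. One gene that this rule names is not reported here. Foxp3, also in that rule, lay at 56.1 to 161. Marker genes, Cdh1 and Epcam were named outside the rule, after their values were seen. Alternatives were other pseudocounts, filters, scalings, a prior without trend, voom, array weights, a replicate block, other lengths, and libraries left out. The removal of the length trend, all 36 pairs, the ratio of Itgae to Itga4, and the spans and counts of the ratios without WT 2 or KO 3 or with other lengths were added after seeing the data.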

Additional observations from a re-analysis of the deposited data

Results flagged for a closer look

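Of 50 values checked for a library far from the rest of its group, 2 were picked out, and about 1 in 20 would be by chance. Rapgef1 stood at 1057 normalized counts in WT 2, above 697 to 733 in the other WT libraries, and Rapgef6 stood at 2669 in WT 2, below 4517 to 4850 in the others. In both the gap to the nearest library was 0.881 of the WT range, past Dixon's 95% critical value.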

How the results depend on the processing

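No chain passed under any of 19 alternatives to the fit. Over all genes 4 passed with array weights, 3 with the replicate block and 4 without both WT 2 and KO 3, and 0 with the other 16. Deviations of same-numbered WT and KO libraries from their group means had r = 0.01, -0.04 and 0.09, against -0.20 to 0.20 for differently numbered ones. The labels do not say whether the numbers mark shared animals or days, and so few libraries cannot settle it. The block passed no chain, and its chain estimates equalled those without WT 4, which has no same-numbered KO library. Lower KO estimates numbered 3 with array weights and 3 to 6 with 1 library left out. With array weights log2 fold changes turned to 0.14 for Itgae, 0.10 for Itgb7, -0.10 for Itga4 and 0.10 for Itgb2, and with the replicate block to 0.014 for Itgav. Without both WT 2 and KO 3 they turned to 0.24 (Itgae), 0.28 (Itgb7), -0.24 (Itga4), -0.19 (Itgb1) and 0.27 (Itgb2). With 1 library left out they ran from -0.13 to 0.11 for Itgae, -0.27 to 0.10 for Itgb7, -0.15 to 0.31 for Itga4, -0.11 to 0.53 for Itgb1, -0.036 to 0.12 for Itgal, -0.20 to 0.13 for Itgb2, -0.19 to 0.12 for Itgav and -0.36 to 0.30 for Itgb3. The median coding transcript as length kept 2 of 9 chains in place. Its models are short for Itgb7, Itgb2 and Itgav (430.5, 630 and 688 nucleotides). Pearson's r of Itgae with Itgb7 was 0.84 with the length trend removed, 0.59 without both WT 2 and KO 3, and 0.73 to 0.92 with 1 library left out. For Itga4 with Itgb7 it was -0.74, -0.75 and -0.94 to -0.75. For Itga6 with Itgb1 it was -0.048, -0.14 and -0.41 to 0.23, and -0.082 as deviations from the genotype means. The cause of these changes was not tested. Depth was lowest in KO 3, where Itgb3 rested on 275 reads. Without molecular identifiers, reads are not independent molecules.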
